A study of Nematostella vectensis with 84 samples.

Results

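The cells described here came from adult starlet sea anemones, Nematostella vectensis, of the SoxC>KikGR line on days 7 and 4 after photoconversion. They were chosen by reporter line and day in the deposited cell table, and they number 2837 of the 12352 cells of the series. The day 7 group held 1731 cells of 5 dissociations, numbered 5 to 9, and the day 4 group held 1106 cells of 3 dissociations, numbered 2 to 4. All 8 dissociations shared the same background per the labels: animals heterozygous for the stable SoxC>KikGR transgene, adults of 6 to 8 weeks, 1% DMSO, and body wall with mesenteries as the tissue. Which stretch of the SoxC gene drives the transgene, and how many animals went into a dissociation, is not given in the sources used here. Cells positive for the reporter were sorted into plates, their RNA was sequenced cell by cell with the MARS-seq method, and each plate gave a pair of libraries. The comparison asks how the makeup of the labelled cells, and the colour of the reporter within each kind of cell, differed between the later and the earlier day.

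KikGR fluoresces green when newly made, and violet light converts it permanently to red. After photoconversion, red protein in a cell was made before the illumination, and green protein was made afterwards or escaped conversion. SoxC is a transcription factor of the Sox family. In Nematostella it is known from progenitors that give rise to neurons, to gland cells and to cnidocytes, the stinging cells. A SoxC reporter is thus made to label cells on their way into these fates together with descendants that still hold the protein. The authors sorted each cell into a green, orange or red class, and the orange class stands between the other two in name. How the classes were cut was not given in the sources used here, and the completeness of the conversion was not examined. Cell types are those of the authors' annotation, which has 45 fine and 13 broad clusters. They could not be checked against marker genes, because no expression values were used here.

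The 20 libraries of both days came from 10 plates and held 111 to 160 cells each, with a median of 146. A dissociation held 245 to 555 cells. A colour class was present for 2760 of the 2837 cells, of which 991 were green, 884 orange and 885 red. Of the 77 cells with no class, 67 were in dissociation 3 of day 4, where the total was 245 cells. They were spread unevenly over its clusters. Among them were 30 Secretory, 11 Gastrodermis and 10 Neural 1 cells, against 0 of Neural 4, mucous cells and developing cnidocytes. Colour shares of dissociation 3 rest on its cells with a class. The labels do not say whether the dissociations came from different animals. The p-values therefore measure the spread between dissociations. In the limma fits that spread is estimated jointly over the clusters tested, not from a single cluster.

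The clearest difference between the days was in the broad cluster Neural 3. On day 7, 41 of 131 coloured Neural 3 cells were green, against 1 of 66 on day 4. The day 7 dissociations 5 to 9 held 6 green cells of 21, 1 of 9, 9 of 18, 11 of 47 and 14 of 36, or 28.6%, 11.1%, 50%, 23.4% and 38.9%. The day 4 dissociations 2, 3 and 4 held 0 of 17, 0 of 4 and 1 of 45. Every day 7 dissociation thus lay above every day 4 dissociation. Dissociation 3 had fewer than 5 coloured Neural 3 cells, the minimum for a share to enter a test, and a further 2 with no class, so the test set 5 dissociations against 2.

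The green share of Neural 3 averaged 30.4% ± 14.8 on day 7 (SD, n = 5), against 1.11% ± 1.57 on day 4 (SD, n = 2). The odds of being green were 13.9 times as high on day 7, with a 95% interval of 2.88 to 67.3. The log2 odds differed by 3.80 with a standard error of 1.14 (limma with Benjamini-Hochberg adjustment over 10 broad clusters, adjusted p = 0.0146). Neural 3 was the only broad cluster that passed, 10% of the 10 tested. The exact permutation test of the shares has a smallest possible p of 0.0476 for 5 against 2. Its two-sided p was 0.0952 unadjusted and 0.514 after Benjamini-Hochberg adjustment over the 10 broad clusters. The call was lost without day 4 dissociation 2 (adjusted p = 0.120), without day 4 dissociation 4 (adjusted p = 0.0761), and when dissociations with 1 coloured cell or more were let in (adjusted p = 0.05002), where the log2 odds differences were 3.68, 3.92 and 3.19.

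**Figure D1:**
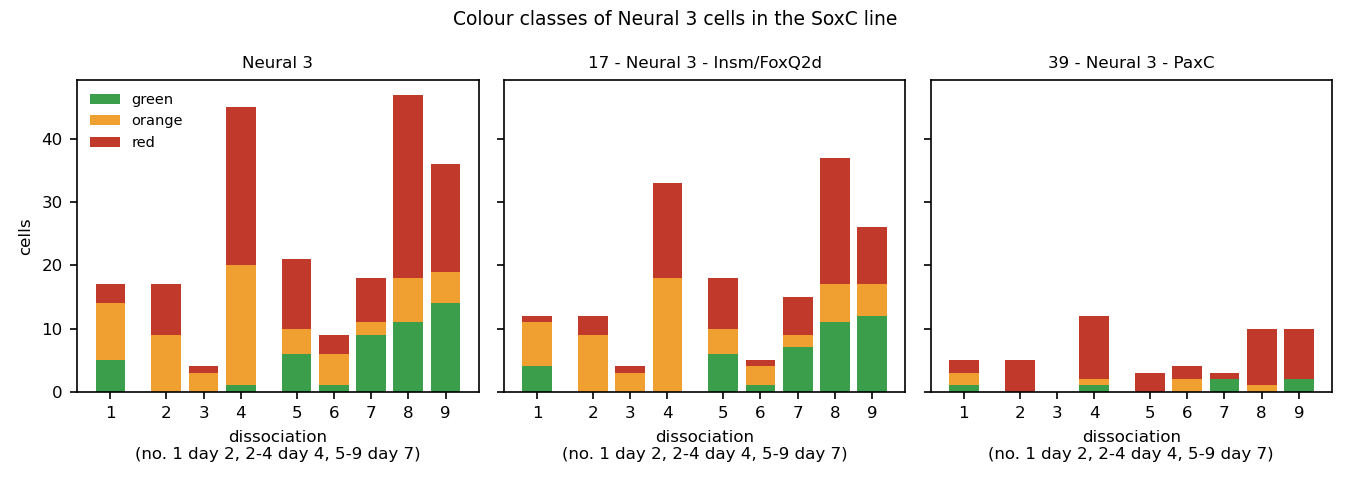
Colour classes of Neural 3 cells and of its fine clusters 17 and 39 in the SoxC line. Each bar is a dissociation, in the order of days 2, 4 and 7, and its height is the number of cells on a linear axis. Green cells appear in all 5 bars of day 7 in Neural 3 and in cluster 17, while day 4 holds 1 green cell, in cluster 39.

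Neural 3 has a pair of fine clusters, and most of its green cells lay in the larger, cluster 17, which the authors named for Insm and FoxQ2d. Both names belong to transcription factors: Insm factors act in the differentiation of neurons and secretory cells in several animals, and FoxQ2d is known from sensory cells of Nematostella. In cluster 17, 37 of 101 coloured cells were green on day 7, against 0 of 49 on day 4. The day 7 dissociations 5 to 9 held 6 green cells of 18, 1 of 5, 7 of 15, 11 of 37 and 12 of 26. The day 4 dissociations 2, 3 and 4 held 0 of 12, 0 of 4 and 0 of 33, and the summed count of 0 allows a share of up to 6.12%, for counting error only.

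Expressed as shares, cluster 17 averaged 35.2% ± 11.4 green on day 7 (SD, n = 5), against 0% in both day 4 dissociations that could be tested. The fitted log2 odds differed by 4.53 with a standard error of 1.02 (limma, adjusted p = 0.00708 over 19 fine clusters), a size that depends on the 0.5 cells added to each count. Over the summed cells the day 7 share, 36.6%, was 5.98 times the limit for day 4. Without day 4 dissociation 4, which held 33 of the 49 day 4 cells, that limit was 18.75% and the ratio 1.95. These ratios sum cells over dissociations and give the day 7 share no error, so they are no bound on the difference between dissociations. Cluster 17 was the only fine cluster that passed, 5.26% of the 19 tested. The unadjusted exact permutation p was 0.0476, the smallest that 5 dissociations against 2 allow. After Benjamini-Hochberg adjustment over the 19 fine clusters the exact permutation p was 0.887. Without day 4 dissociation 4 the log2 odds difference was 3.82 and the limma adjusted p was 0.403.

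The other fine cluster of Neural 3, cluster 39, was named for PaxC, a paired-box transcription factor. It held 4 green cells of 30 on day 7, against 1 of 17 on day 4. Most of its cells were red on both days, with 23 red cells on day 7 and 15 on day 4. It had too few dissociations with 5 coloured cells to be tested. A difference between clusters 17 and 39 was not tested.

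The red share of Neural 3 was 46.7% ± 11.2 on day 7 (SD, n = 5), against 51.3% ± 6.01 on day 4 (SD, n = 2), and did not pass (log2 odds difference -0.25 with a standard error of 0.722, limma adjusted p = 0.948). In cluster 17 the red share was 38.6% ± 12.6 on day 7 (SD, n = 5), against 35.2% ± 14.5 on day 4 (SD, n = 2). The orange class filled the rest. In Neural 3 it made up 19.0%, 55.6%, 11.1%, 14.9% and 13.9% in the day 7 dissociations 5 to 9, against 52.9% and 42.2% in day 4 dissociations 2 and 4. Day 7 dissociation 6, with 5 orange cells of 9, lay above both day 4 values and the other 4 lay below them. Orange shares within clusters were not tested.

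The colour of all cells also varied between dissociations, so green Neural 3 cells were set against the other cells of the same dissociation. Relative to the other coloured cells, the log2 odds of a green Neural 3 cell were 2.86 higher on day 7 than on day 4 with a standard error of 0.752 (limma adjusted p = 0.0305). For cluster 17 the relative difference was 3.59 with a standard error of 0.682 (limma adjusted p = 0.00888). The exact permutation p was 0.0476 for each of them.

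Seen from the green cells, Neural 3 held a larger part of them on day 7. These are the green Neural 3 cells already counted, set against another total, so the fit is no separate evidence. It made up 5.87% ± 3.70 of the green cells on day 7 (SD, n = 5), against 0.327% ± 0.566 on day 4 (SD, n = 3), which includes dissociation 3. The log2 odds differed by 2.86 with a standard error of 0.788 (limma adjusted p = 0.0193 over 10 broad clusters, of which 10% passed, exact permutation p = 0.0893). The limma adjusted p was 0.0983 without day 4 dissociation 2 and 0.132 without day 4 dissociation 3. With the pool of the deposited well lists as a covariate 2 clusters passed, the second being Neural 4, which made up 3.32% ± 1.49 of the green cells on day 7 (SD, n = 5), against 1.08% ± 1.14 on day 4 (SD, n = 3) and did not pass without that term (limma adjusted p = 0.376).

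The line also gave 1 dissociation on day 2, with 614 cells. Its Neural 3 cells were not all red or orange: 5 of 17 were green. Over days 2, 4 and 7 the green cells of Neural 3 were thus 5 of 17, 1 of 66 and 41 of 131, so the lowest share was that of day 4. In cluster 17 the counts were 4 of 12, 0 of 49 and 37 of 101. The green share of Neural 3 on day 2 rests on 1 dissociation and was not tested against the other days.

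Neural 3 cells themselves did not differ detectably between the days in their share of all cells. They were 7.34% ± 3.32 of all cells on day 7 (SD, n = 5), against 5.37% ± 2.83 on day 4 (SD, n = 3), an odds ratio of 1.40 with a 95% interval of 0.577 to 3.39 (limma adjusted p = 0.897). The day 7 dissociations 5 to 9 had 6.95%, 3.02%, 5.83%, 9.09% and 11.8%, against 5.56%, 2.45% and 8.11% in day 4 dissociations 2 to 4. The ranges overlapped for most of their length.

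The other neural clusters had higher mean green shares on day 7, but none passed. In Neural 4, whose single fine cluster 6 was named for Anoctamin8, a member of a family of membrane proteins, the shares were 12.5%, 19.0%, 58.3%, 19.5% and 4.17% in day 7 dissociations 5 to 9, against 0%, 16.7% and 1.67% in day 4 dissociations 2 to 4. The mean was 22.7% ± 20.9 on day 7 (SD, n = 5), against 6.11% ± 9.18 on day 4 (SD, n = 3) (limma adjusted p = 0.301, exact permutation p = 0.232). Dissociation 7 was far above the rest of day 7, and dissociation 3 of day 4 lay among the day 7 values.

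Neural 2 averaged 36.7% ± 18.1 green on day 7 (SD, n = 5), against 17.6% ± 10.2 on day 4 (SD, n = 3) (limma adjusted p = 0.409). Neural 1, the largest neural cluster, averaged 31.0% ± 18.9 on day 7 (SD, n = 5), against 18.8% ± 12.0 on day 4 (SD, n = 3) (limma adjusted p = 0.453). The odds ratios were 2.64 with a 95% interval of 0.666 to 10.4 for Neural 2 and 2.07 with an interval of 0.523 to 8.19 for Neural 1. Both intervals hold an odds ratio of 1 as well as ratios of several times that.

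Progenitor cells, which the annotation sets apart as a cluster of their own, were mostly green in each day 7 dissociation that held them. They averaged 78.3% ± 14.9 green on day 7 (SD, n = 4), against 58.0% ± 17.3 on day 4 (SD, n = 3) (limma adjusted p = 0.453). Dissociation 9 of day 7 held no progenitor cell at all. Day 4 dissociations 2, 3 and 4 held 4 green progenitors of 8, 7 of 9 and 6 of 13. Dissociation 3 held a further 3 with no class. Developing cnidocytes, the immature stinging cells, averaged 59.2% ± 17.7 green on day 7 (SD, n = 5), against 65.5% ± 20.3 on day 4 (SD, n = 3) (limma adjusted p = 0.743). They ranged from 44.4% to 89.7% on day 7 and from 52.9% to 88.9% on day 4. Hardly any of them were red: 0, 0, 0, 4 and 0 cells in day 7 dissociations 5 to 9, against 2, 0 and 2 in day 4 dissociations 2 to 4. Their red share had the smallest p among the broad clusters and did not pass (1.48% ± 3.31 with n = 5 on day 7, 9.98% ± 9.22 with n = 3 on day 4, SD, limma adjusted p = 0.678).

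Gland and mucous cells lay between these and the neural clusters. Secretory cells, the largest cluster, were 40.1% ± 12.6 green on day 7 (SD, n = 5), against 32.4% ± 11.6 on day 4 (SD, n = 3) (limma adjusted p = 0.685). Mucous cells, gland cells that release mucus, were 37.5% ± 17.5 green on day 7 (SD, n = 5), against 23.9% ± 24.4 on day 4 (SD, n = 3) (limma adjusted p = 0.400). Their day 4 dissociations had 50%, 20.0% and 1.64%, a range wider than that of the 5 day 7 dissociations, from 18.2% to 58.8%.

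Gastrodermis, the inner epithelium that lines the gut cavity, had a lower mean green share on day 7. It averaged 60.9% ± 29.3 on day 7 (SD, n = 5), against 71.5% ± 1.46 on day 4 (SD, n = 3) (limma adjusted p = 0.662). The day 7 dissociations 5 to 9 had 58.5%, 68.3%, 12.1%, 79.0% and 86.8%, against 72.9%, 71.7% and 70.0% in day 4 dissociations 2 to 4. Dissociation 7 stood apart within day 7: in it, 29 of 33 coloured gastrodermis cells were orange, all 29 of them in fine cluster 3, where 2 of 31 cells were green. Among the broad clusters tested, the same dissociation had the highest green share of day 7 in all but Neural 1 and gastrodermis.

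**Figure D2:**
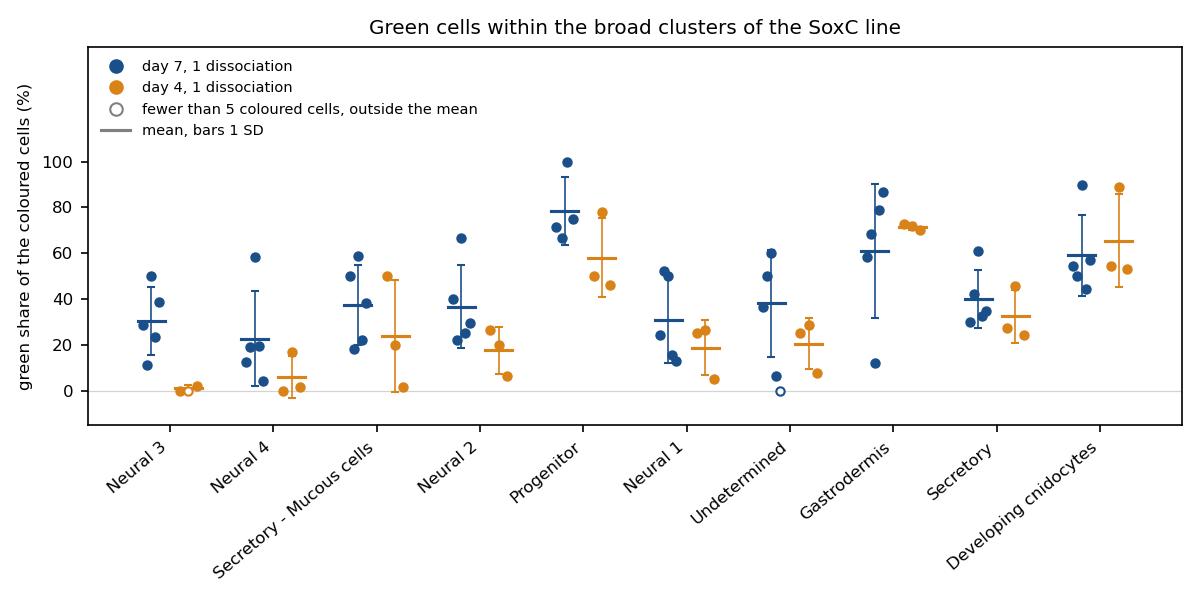
Green share of the coloured cells in each of the 10 broad clusters tested. The vertical axis is in percent, filled points are dissociations with 5 or more coloured cells, open points had fewer and are outside the mean, and bars are 1 SD around the mean. Day 7 and day 4 points overlap in every cluster but Neural 3, where day 7 spans 11.1% to 50% and both filled day 4 points are at or below 2.22%.

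Of the fine clusters outside Neural 3, the smallest p-values for the green share after cluster 6 belonged to mucous cluster 9, to Neural 2 cluster 22, named WFSa, to Secretory cluster 34, named for chitinase, an enzyme that breaks down chitin, and to cluster 23 of undetermined type. Cluster 34 averaged 67.8% ± 24.1 green on day 7 (SD, n = 3), against 35.4% ± 2.95 on day 4 (SD, n = 2), in the dissociations with 5 coloured cells or more. The other dissociations held 0 of 2 and 1 of 3 green cells on day 7, against 2 of 4 on day 4, so over all dissociations the groups overlapped. Cluster 22 averaged 36.3% ± 29.7 on day 7 (SD, n = 5), against 10.8% ± 6.46 on day 4 (SD, n = 2). Each of the 4 had a limma adjusted p of 0.596. For the red share the fine clusters with the smallest p were developing cnidocytes, Secretory clusters 16, 34 and 21, Neural 2 cluster 22 and progenitors, all with lower means on day 7 and all with a limma adjusted p of 0.536.

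Counted over all clusters tested, the fitted log2 odds of green were higher on day 7 in 8 of 10 broad and 15 of 19 fine clusters, and the mean green shares gave the same counts. The fitted log2 odds of red were lower on day 7 in 9 of 10 broad and 15 of 19 fine clusters, and none passed, 0% of either set. By the mean red shares the counts were 8 of 10 and 14 of 19. Neural 4 was the broad cluster that differed between these counts, with a mean red share of 55.0% on day 7, against 48.3% on day 4. At an unadjusted p under 0.05 the limma fit of the red share also gave 0 broad and 0 fine clusters. The clusters of a dissociation share its animals, its sort and its plates, so these counts are no independent evidence of a common direction.

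**Figure D3:**
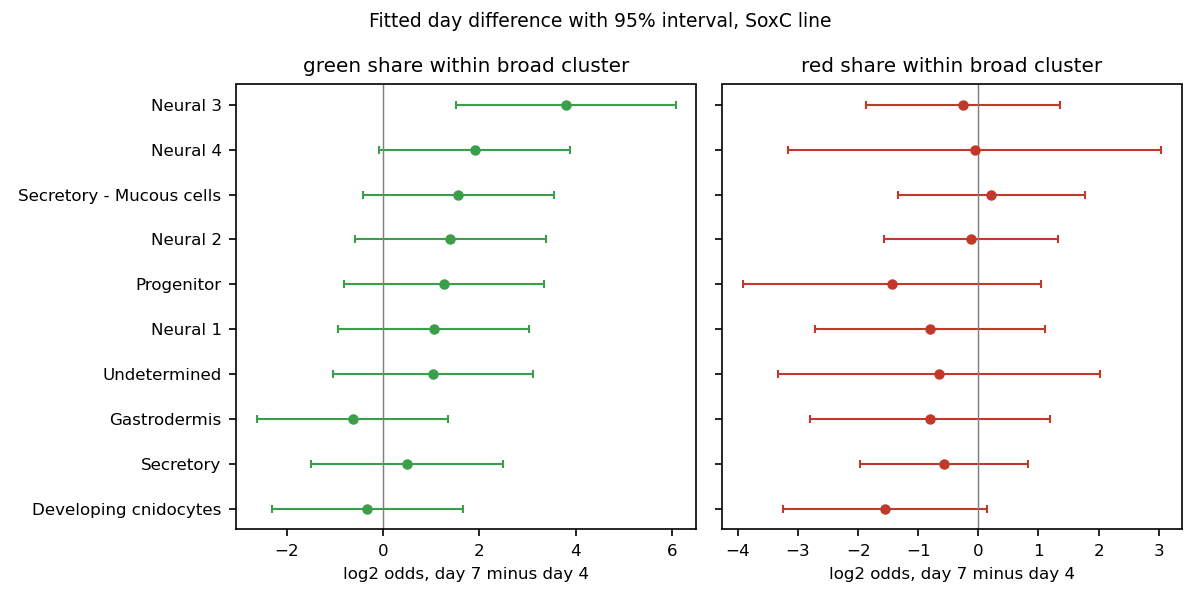
Fitted difference in log2 odds, day 7 minus day 4, of the green share (left) and the red share (right) within each broad cluster, with 95% intervals. Values right of 0 are higher on day 7, and Neural 3 in the green panel, at 3.80, is the only cluster whose interval lies clear of 0.

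Over all cells the colours of the days could not be told apart. Green cells were 34.7%, 40.6%, 56.8%, 33.6% and 41.0% of the coloured cells in day 7 dissociations 5 to 9, against 34.2%, 49.4% and 18.4% in day 4 dissociations 2 to 4. Dissociation 4 was the least green and, at 50.6%, the reddest of the 8. The green share averaged 41.3% ± 9.28 on day 7 (SD, n = 5), against 34.0% ± 15.5 on day 4 (SD, n = 3), a difference of 7.32 points (two-sided exact permutation p = 0.446, adjusted over the 3 classes 0.625).

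The orange share averaged 31.7% ± 5.26 on day 7 (SD, n = 5), against 34.2% ± 3.33 on day 4 (SD, n = 3) (exact permutation p = 0.536). Red cells averaged 27.0% ± 8.41 on day 7 (SD, n = 5), against 31.8% ± 18.9 on day 4 (SD, n = 3) (exact permutation p = 0.625). The direction of the green and red differences rested on dissociation 4: without it they were -0.49 and 4.58 points. Without dissociation 3, which held most of the cells with no class, they were 15.0 and -14.3 points. Of the exact test of 5 against 3, which has 56 arrangements, the smallest possible p is 0.0179.

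**Figure D4:**
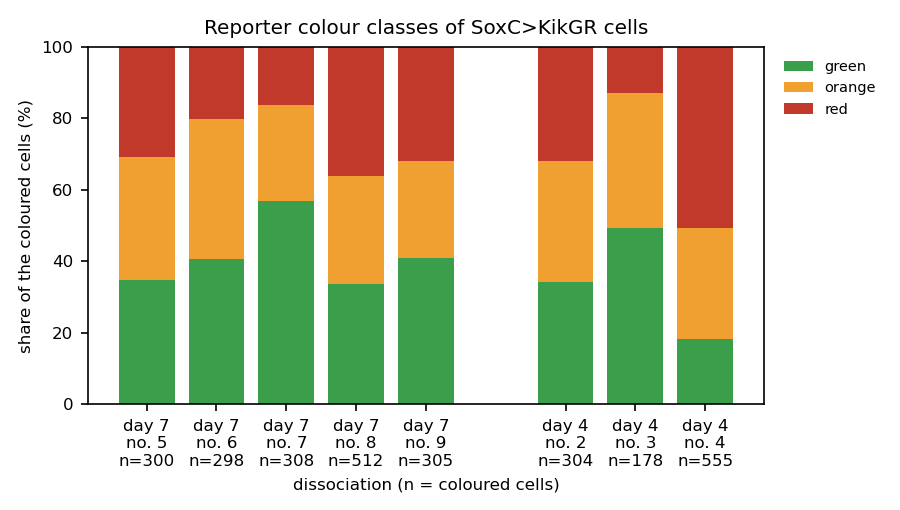
Reporter colour classes of all coloured SoxC>KikGR cells in each dissociation. The vertical axis is the share in percent, stacked to the whole, with the 5 day 7 dissociations on the left and the 3 day 4 dissociations on the right. Green shares run from 33.6% to 56.8% on day 7 and from 18.4% to 49.4% on day 4, and the ranges overlap.

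The makeup of the labelled cells did not differ detectably between the days. None of the 12 broad clusters tested passed (0%, smallest limma adjusted p = 0.897), and none had an unadjusted p under 0.05. Among the 35 fine clusters with 20 cells or more, 0% passed and 1 had an unadjusted p under 0.05. For the groups below, the odds ratio is day 7 over day 4 and its 95% interval says how large a difference remains possible.

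Progenitors and developing cnidocytes had the largest differences in log2 odds among the broad clusters. Progenitors made up 2.10% ± 1.84 of the cells on day 7 (SD, n = 5), against 3.28% ± 1.40 on day 4 (SD, n = 3), with an odds ratio of 0.437 and an interval of 0.105 to 1.82. Developing cnidocytes were 5.96% ± 3.69 on day 7 (SD, n = 5), against 3.44% ± 0.332 on day 4 (SD, n = 3), with an odds ratio of 1.503 and an interval of 0.627 to 3.60. The cnidocyte share was 9.39% and 10.4% in dissociations 7 and 8 and 2.30% to 4.03% in the other 3 of day 7, while day 4 held to 3.06% to 3.67%.

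Neural clusters 0 to 4 together made up 31.1%, 20.8%, 21.4%, 35.6% and 41.6% in day 7 dissociations 5 to 9, against 29.7%, 22.9% and 39.3% in day 4 dissociations 2 to 4. Both groups thus spanned about the same range. Neural 1 averaged 10.6% ± 3.29 on day 7 (SD, n = 5), against 13.6% ± 1.53 on day 4 (SD, n = 3), with an odds ratio of 0.730 and an interval of 0.370 to 1.44. Neural 2 averaged 3.89% ± 1.17 on day 7 (SD, n = 5), against 5.16% ± 1.32 on day 4 (SD, n = 3). Neural 4 averaged 7.53% ± 2.52 on day 7 (SD, n = 5), against 6.33% ± 3.97 on day 4 (SD, n = 3). The smallest neural cluster, Neural 0, named for Prdm14d, held 14 cells on day 7 and 2 on day 4, which is under the minimum of 20 cells, and was not tested.

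Secretory cells averaged 30.3% ± 11.7 on day 7 (SD, n = 5), against 29.99% ± 2.10 on day 4 (SD, n = 3), with an odds ratio of 0.968 and an interval of 0.433 to 2.17. The 5 day 7 dissociations ranged from 17.1% to 46.0%, and the 3 of day 4 lay inside that range. Mucous cells averaged 8.36% ± 3.67 on day 7 (SD, n = 5), against 8.40% ± 3.77 on day 4 (SD, n = 3). Gastrodermis averaged 15.6% ± 5.27 on day 7 (SD, n = 5), against 16.9% ± 8.63 on day 4 (SD, n = 3), with an odds ratio of 0.9501 and an interval of 0.417 to 2.16.

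The remaining broad clusters were small. Epidermis, the outer epithelium, averaged 3.30% ± 4.07 on day 7 (SD, n = 5), against 2.06% ± 1.91 on day 4 (SD, n = 3). Muscle cells averaged 0.988% ± 0.618 on day 7 (SD, n = 5), against 1.33% ± 1.20 on day 4 (SD, n = 3). Cells of undetermined type averaged 3.25% ± 1.28 on day 7 (SD, n = 5), against 3.93% ± 1.14 on day 4 (SD, n = 3).

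**Figure D5:**
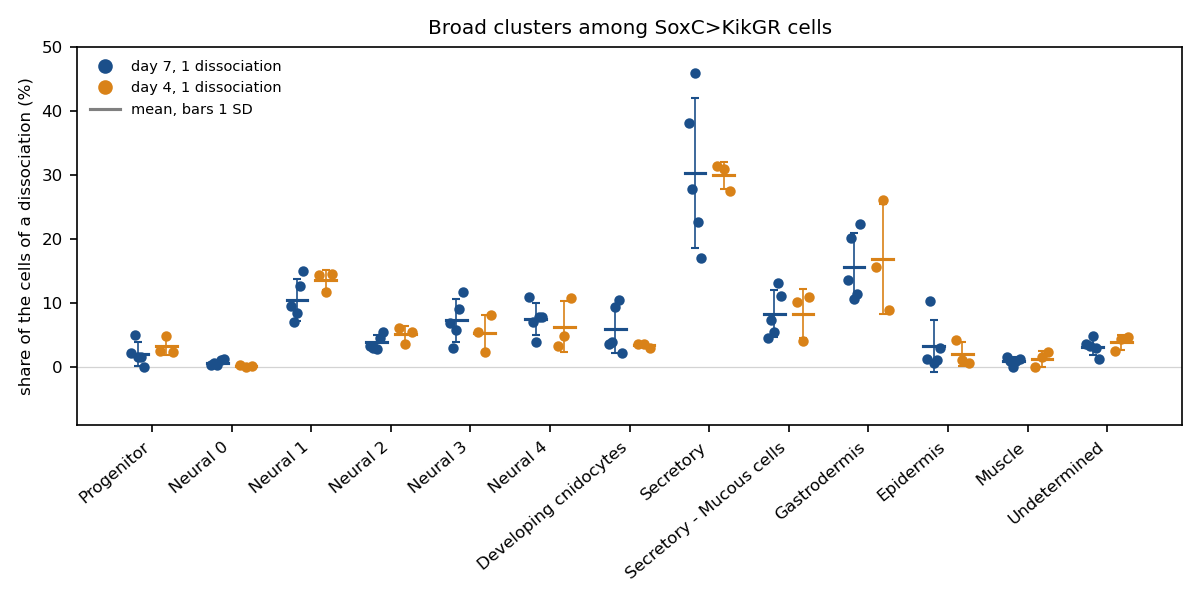
Share of each of the 13 broad clusters among the cells of a dissociation, in percent on a linear axis. Each point is a dissociation, lines are means and bars 1 SD. Day 7 and day 4 points overlap in every cluster, and the Secretory share has the widest spread, from 17.1% to 46.0% on day 7.

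Among fine clusters, cluster 42 of Neural 1, named Aeq5-like1, had the smallest p. It held 0, 1, 0, 7 and 0 cells in day 7 dissociations 5 to 9, against 5, 1 and 7 in day 4 dissociations 2 to 4. Its share averaged 0.338% ± 0.586 on day 7 (SD, n = 5), against 1.101% ± 0.628 on day 4 (SD, n = 3) (limma unadjusted p = 0.0393, adjusted p = 0.859, exact permutation p = 0.196). The next was cluster 10 of Neural 1, named RPa, at 0.891% ± 0.612 on day 7 (SD, n = 5), against 2.14% ± 0.443 on day 4 (SD, n = 3) (limma adjusted p = 0.859, exact permutation p = 0.0536). Dissociation 9 of day 7, at 1.64%, stood at the level of day 4 dissociation 2, at 1.63%, and was the only overlap.

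Larger fine clusters showed wide spreads within a day. Cluster 12, Secretory-like NEP2/8, averaged 8.87% ± 7.62 on day 7 (SD, n = 5), against 6.04% ± 4.98 on day 4 (SD, n = 3). Its shares were 14.6%, 3.02%, 19.4%, 4.06% and 3.28% in day 7 dissociations 5 to 9, against 11.4%, 1.63% and 5.05% in day 4 dissociations 2 to 4. The 3 highest, dissociations 5, 7 and 2, are the 3 that were demultiplexed in the pool named SB41, and the part of the pool in this share was not tested.

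Gastrodermis clusters 2 and 3 averaged 5.12% ± 3.46 and 7.06% ± 1.92 (SD, n = 5) on day 7 and 7.29% ± 1.84 and 8.49% ± 7.40 (SD, n = 3) on day 4. Cluster 30 of gastrodermis was at 0% in dissociations 5, 6 and 7, at 1.35% in dissociation 8 and at 5.25% in dissociation 9 of day 7, against 0%, 0% and 0.180% on day 4. The trypsin clusters 7 and 16, named for a digestive protease, averaged 4.79% ± 1.57 and 3.05% ± 0.971 (SD, n = 5) on day 7 and 5.99% ± 1.94 and 4.30% ± 0.835 (SD, n = 3) on day 4. Mucous cluster 9 averaged 5.34% ± 2.59 on day 7 (SD, n = 5), against 6.28% ± 3.46 on day 4 (SD, n = 3). Each of these had a limma adjusted p of 0.859 or 0.951.

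The variety of cell types did not differ detectably between the days. The Shannon index over the fine clusters, with natural logarithms, averaged 3.21 ± 0.0998 on day 7 (SD, n = 5), against 3.29 ± 0.116 on day 4 (SD, n = 3) (exact permutation p = 0.375). Thinned to 245 cells, a dissociation held 36.3 ± 1.72 fine clusters on day 7 (SD, n = 5), against 37.7 ± 2.86 on day 4 (SD, n = 3) (exact permutation p = 0.464).

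Some technical measures moved between the dissociations. Of the sorted wells in the deposited well lists, which did not cover 3 of the 20 libraries, 77.1% ± 5.55 (SD, n = 5) were kept as cells on day 7 and 72.7% ± 8.03 (SD, n = 3) on day 4 (exact permutation p = 0.375). The lowest were dissociation 3 of day 4 at 64.5% and dissociation 8 of day 7 at 67.4%. The libraries of 1 plate, which hold cells of the same sort, differed by a median of 4.81 points in the green share over the 10 plates, by 3.36 points in the share of gastrodermis and by 7.19 points in that of Secretory cells.

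Whether the day difference belonged to the SoxC line was asked with the Elav and FoxL2 lines, using dissociations with DMSO on days 4 and 7. No broad cluster share had a day difference that differed between SoxC and the other lines (0 of 12, 0%, smallest limma adjusted p = 0.800, for Neural 2), and none had an unadjusted p under 0.05. Epidermis and cells of undetermined type came next, each with a limma adjusted p of 0.974. The same held for the green share within clusters (0 of 9, 0%, smallest limma adjusted p = 0.748), where the smallest unadjusted p-values were those of undetermined cells, gastrodermis and Neural 3. For Neural 3 the day difference in log2 odds of green was 3.80 in SoxC and 2.31 in the other lines, a difference of 1.49 with a 95% interval of -1.91 to 4.89 (limma adjusted p = 0.748). The fit gave Elav and FoxL2 a common day difference, so 2.31 need not describe either line alone. Their green shares were not fitted apart. The counts in the other lines were small. In Elav 9 of 9 Neural 3 cells were green in the day 7 dissociation with DMSO, against 1 of 3 and 1 of 5 on day 4. In FoxL2 2 of 15 and 0 of 12 were green on day 7, against 2 of 21 and 0 of 18 on day 4. These FoxL2 shares were 13.3% and 0% on day 7, against 9.52% and 0% on day 4. The fit for Neural 3 used 13 dissociations. The Elav dissociation with 1 of 3 and SoxC dissociation 3 had fewer than 5 coloured cells and did not enter.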

How the data were processed

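Labels of the 84 libraries gave driver, day, treatment and dissociation, and these differed from the deposited cell table in 0 of 12352 cells. The deposited table holds categories set by the authors, namely library, gate, cluster and colour class, with no molecule counts, so depth per cell was not used here. Per the submitters' processing notes, STAR 2.7.10b and STARsolo were used. The cell filters, clustering settings and colour thresholds are not given in the sources used here. All SoxC cells came from a single gate, and 0 well identifiers were shared between libraries.

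The dissociation was the replicate. Shares were turned into log2 odds with 0.5 cells added to each side and fitted with limma 3.58.1 in R 4.3.3, with day as the only term, Benjamini-Hochberg adjustment over the clusters tested and a threshold of 0.05. In the fit of the green share in broad clusters limma gave every cluster the same residual spread, so the Neural 3 interval does not rest on the spread of Neural 3 alone. Clusters needed 20 cells over the 8 dissociations. Colour shares needed 5 coloured cells in a dissociation, in at least 2 day 4 and 3 day 7 dissociations. Two-sided exact permutation tests of the shares stood beside the fits, and their p-values are unadjusted unless stated. Limits for counts of 0 are 3 counts of the total. The precision was set by 245 to 555 cells per dissociation. The fit of the fine cluster shares was tried on simulated data with large shifts and an equal spread in every cluster, unlike these data. That trial is not used as support here, and the fits of the colour shares were not tried in this way.

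All broad clusters were named. Fine clusters were named if past the threshold, or among the 8 largest differences in points or the 8 largest mean shares. Colour results were named if past the threshold, or by the 6 smallest p-values where few passed. Cluster 42 was named after its values were seen. Members, lists and tests were chosen with earlier results of these data known.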

Additional observations from a re-analysis of the deposited data

Results flagged for a closer look

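In a group of 5 dissociations a value was picked out when its gap to the nearest other value was more than 0.71 of the whole range. Sets with 4 values had a higher cut-off. The rule was applied to 51 sets of day 7 values, and 7 sets, each of 5 values, gave a value that was picked out. Its rate of about 1 in 20 by chance holds for independent, normally distributed values. The sets share dissociations and some repeat the same values, so the 7 cannot be set against that rate. Day 7 dissociation 6 had the highest share of Epidermis, 10.4%, with 2.95% as the next. Dissociation 7 had the highest green share of Neural 4, 58.3% of 12 coloured cells, which is counted again as fine cluster 6, its only fine cluster. Dissociation 8 had the highest red share of developing cnidocytes, 7.41%, counted again as fine cluster 14. The other 4 day 7 dissociations were at 0, so any share above 0 would have been picked out there. Gastrodermis cluster 30 was highest in dissociation 9, at 5.25% of its cells. The share of sorted wells kept was lowest in dissociation 8, at 67.4%.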

How the results depend on the processing

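No broad or fine cluster share passed under any alternative run. In the exact permutation test an adjusted p under 0.05 needed several clusters at the smallest possible p together. Its counts of 0, here and below, therefore decide nothing. The number of broad clusters whose green share passed was 0 in the exact permutation test and 0 with 1 coloured cell or more, and 0 to 1 when a dissociation was left out. Among fine clusters it was 0 in the exact test, 0 to 1 when a dissociation was left out, and 0 with orange cells left out, where cluster 17 had too few cells to be tested. There Neural 3 still passed among broad clusters (limma adjusted p = 0.0406) and 1 red share passed, the same contrast seen from the other side. Leaving out dissociations can leave a lone day 4 sample, which is then assumed to vary like the others. Among green cells 2 clusters passed with the pool as covariate and 0 to 1 without a dissociation.

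Day 7 minus day 4, the overall green difference was -0.49 to 15.0 points and the red -14.3 to 4.58 points when a dissociation was left out. The slope over 3 days was -0.84 points for green and 2.67 for orange once day 2 was added, and orange was 0.885 points with unclassed cells in the total. The Shannon index over broad clusters differed by 0.00255, and the thinned number of clusters by -2.68 to 0.163 without a dissociation.

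Cluster shares near no difference changed sign. In log2 odds, with the pool as covariate Secretory was 0.084, Muscle 0.14 and mucous cells -0.076. Weighted by cells, Gastrodermis was 0.12 and mucous cells -0.067, and without Gastrodermis mucous cells were -0.019. As a slope over 3 days, Epidermis was -0.12, Secretory 0.28, cluster 3 -0.40, cluster 30 -0.54 and cluster 7 0.031. In percentage points, Secretory was 0.326, mucous cells -0.0371 and cluster 3 -1.43, and on the arcsine scale mucous cells were -0.000329 and cluster 3 -0.00663. Without a dissociation, the log2 odds ranged over -0.23 to 1.06 in Epidermis, -0.53 to 0.38 in Gastrodermis, -1.27 to 0.70 in Muscle, -0.034 to 0.86 in Neural 4 and its cluster 6, -0.31 to 0.20 in Secretory, -0.47 to 0.27 in mucous cells, -0.20 to 1.21 in cluster 12, -0.76 to 0.99 in cluster 3 and -0.77 to 0.19 in cluster 9. They ranged over -0.026 to 0.82 for Neural 2 among green cells, -0.34 to 3.93 for the green share of cluster 23, and -1.53 to 0.22 and -1.56 to 0.39 for the red shares of Gastrodermis and undetermined cells. The causes were not tested. No paired analysis was possible because the groups share no replicate numbers.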
